A study of Mus musculus with 12 samples.

Results

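Fgf21 encodes a hormone that the liver secretes in fasting and under stress. It was followed here together with 9 genes of the integrated stress response in livers of cholestatic mice. The 10 genes were chosen by symbol. Fgf21 and Gdf15 encode hormones, Atf4, Atf5, Ddit3 and Trib3 encode factors and a feedback regulator, and Asns, Psat1, Phgdh and Chac1 encode enzymes of amino acid and glutathione metabolism. All 10 were found among the 16970 symbols measured, and 9 of them passed the filter on low values and were among the 10805 genes tested; Phgdh did not. Fgf21 was put forward for its difference between BDL_H and BDL, so no test is given for any of the 10 genes in that comparison, and none for Fgf21 in any comparison that uses those libraries.

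The series held 12 liver libraries in 4 groups of 3, which are called here by their titles. BDL livers came from mice whose bile duct had been ligated for 7 days. BDL_H livers had in addition received the bile acid hyodeoxycholic acid (HDCA), 100 mg/kg for 4 days, starting 3 days after the operation. MDR and MDR_H were taken to be the Abcb4-/- mice of the series description, which lack a phospholipid transporter of the bile canaliculus; MDR_H received 100 mg/kg HDCA for 21 days. The description gives an age of 60 days for the mice that were given HDCA, read here as the age at the start, and no age at sampling. Livers without cholestasis were not analysed here, and no label used here gives strain or sex. No label states that libraries of a group are from different mice, so each p-value reflects library-to-library spread, part of which may be technical.

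Levels are in FPKM, fragments scaled by gene model length and by library depth. Abcb4 was at 52.8 to 178.4 FPKM in the ligated livers and at 129.1 to 181.3 in those labelled MDR and MDR_H. A value over the whole gene cannot show whether the allele is disrupted, so it does not check these labels. Recovered reads per library ran from 34260782 to 40427855. BDL replicate 1 and BDL_H replicate 2 stood apart from the other ligated livers, with medians of log2(FPKM + 1) at 2.48 and 2.56 where the others had 2.81 to 2.88. The sum of 4 Y-linked genes was 16.1 to 20.1 FPKM in all 6 ligated livers and in MDR replicate 1, and 0 to 0.016 in the remaining 5. Apart from what MDR replicate 1 shows, the model and this difference cannot be told apart. Of 8 hepatocyte markers 7 were measured, and they summed to 32422 to 64267 FPKM.

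In the integrated stress response, kinases that sense amino acid shortage, unfolded proteins, heme shortage or viral RNA phosphorylate the translation factor eIF2. Protein synthesis then slows in general while translation of the Atf4 mRNA rises, and ATF4 protein activates genes of amino acid supply, redox defence and, under lasting stress, cell death. In liver, Fgf21 also answers to PPAR alpha, the fatty acid receptor, and to ChREBP, the sugar-sensing factor. In bulk liver RNA, fewer cells of a type and less RNA per cell cannot be told apart.

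ATF4 acts with C/EBP proteins at composite sites. The bases before the transcription start are shown for Fgf21, on which the set is centred, for Chac1 and Asns, 2 genes called between the models, and for Trib3, which was not called. They are RefSeq promoters of build GRCm38.p6, 250 bases ending at the start, 5′ to 3′ on the strand of the gene. All 10 genes matched the promoter set, with 13 starts. Capitals mark TGATGNAA or TGNTGCAA on either strand; both patterns include TGATGCAA.
Fgf21 (chr7:45615491-45615740, minus strand): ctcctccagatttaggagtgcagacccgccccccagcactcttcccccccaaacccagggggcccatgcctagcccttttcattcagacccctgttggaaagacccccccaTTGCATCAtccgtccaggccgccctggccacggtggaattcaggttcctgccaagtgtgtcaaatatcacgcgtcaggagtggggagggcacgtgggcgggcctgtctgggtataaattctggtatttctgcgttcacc
Chac1 (chr2:119350992-119351241, plus strand): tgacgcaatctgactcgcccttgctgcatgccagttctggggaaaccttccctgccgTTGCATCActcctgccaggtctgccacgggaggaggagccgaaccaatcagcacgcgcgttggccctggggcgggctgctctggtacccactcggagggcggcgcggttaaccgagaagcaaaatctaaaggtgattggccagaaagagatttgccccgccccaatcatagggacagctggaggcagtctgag
Asns (chr6:7693210-7693459, minus strand): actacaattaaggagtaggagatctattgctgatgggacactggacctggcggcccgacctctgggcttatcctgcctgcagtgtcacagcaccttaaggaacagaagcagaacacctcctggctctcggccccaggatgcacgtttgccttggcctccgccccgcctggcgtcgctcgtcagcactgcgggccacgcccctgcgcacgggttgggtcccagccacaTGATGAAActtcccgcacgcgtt
Trib3 (chr2:152344061-152344310, minus strand): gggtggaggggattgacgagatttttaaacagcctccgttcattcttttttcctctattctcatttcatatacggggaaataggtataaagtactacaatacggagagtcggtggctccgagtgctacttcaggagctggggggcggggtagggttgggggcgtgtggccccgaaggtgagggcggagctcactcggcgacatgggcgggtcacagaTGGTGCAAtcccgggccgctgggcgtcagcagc
Fgf21 and Chac1 hold TGATGCAA on the strand opposite to the gene, beginning 139 and 193 bases before the start. Asns holds TGATGAAA, beginning 23 bases before the start, and Trib3 holds TGGTGCAA, beginning at 33. TGATGNAA occurred in promoters of 3 of the 10 genes, Fgf21, Chac1 and Asns, and in 3.45% of all 32851 promoters of that length. TGNTGCAA occurred in 4, Fgf21, Chac1, Trib3 and Psat1, and in 2.72% of all. These matches describe letters and show no binding.

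Fgf21 (GRCm38 chromosome 7, 45613886 to 45615490, minus strand) was high in ligated livers without HDCA. It stood at 16.7, 10.7 and 6.13 FPKM in BDL and at 2.26, 1.85 and 2.14 in BDL_H. All 3 libraries with HDCA lay below all 3 without, and they were close together, with an SD of 0.207 FPKM against 5.30. The means were 11.2 and 2.08 FPKM, a ratio of 5.37, and the fitted difference in log2(FPKM + 1) was -1.89 ± 0.56 (SE, n = 3 per group). Without BDL replicate 1 and BDL_H replicate 2 it was -1.52. These are the values for which Fgf21 was put forward.

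In the other model, Fgf21 stood at 0.447, 0.762 and 3.88 FPKM in MDR and at 0.493, 2.04 and 5.92 in MDR_H. The groups overlapped, and in each replicate 3 was highest. The difference in log2(FPKM + 1) of 0.44 ± 0.56 did not pass (limma adjusted p = 1.00), with a 95% interval from -0.77 to 1.66. Taken in pairs by replicate number, MDR_H was higher by 0.045, 0.78 and 0.50 in log2(FPKM + 1), in 3 of 3 pairs, and the fit with the pairs as a block did not call it either (limma adjusted p = 1.00). No label gives these pairs, which were taken from the values alone. In the first of them, the Y-linked genes summed to 20.1 FPKM in MDR replicate 1 and to 0.016 in MDR_H replicate 1. Few reads lay behind the lowest Fgf21 values, 15 in MDR replicate 1 and 16 in MDR_H replicate 1, against 223 to 620 in BDL. By mean, BDL was followed by MDR_H (2.81 ± 2.79 FPKM, SD, n = 3), BDL_H (2.08 ± 0.207) and MDR (1.70 ± 1.90), and these last 3 groups overlapped. MDR minus BDL was -2.30 ± 0.56 and MDR_H minus BDL_H was 0.03 ± 0.56, the latter turning to -0.11 after median-of-ratios scaling and running from -0.53 without MDR_H replicate 3 to 0.57 without MDR_H replicate 1. The HDCA difference in MDR exceeded that in BDL by 2.33 ± 0.79, a description that contains the value Fgf21 was chosen for.

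**Figure D1:**
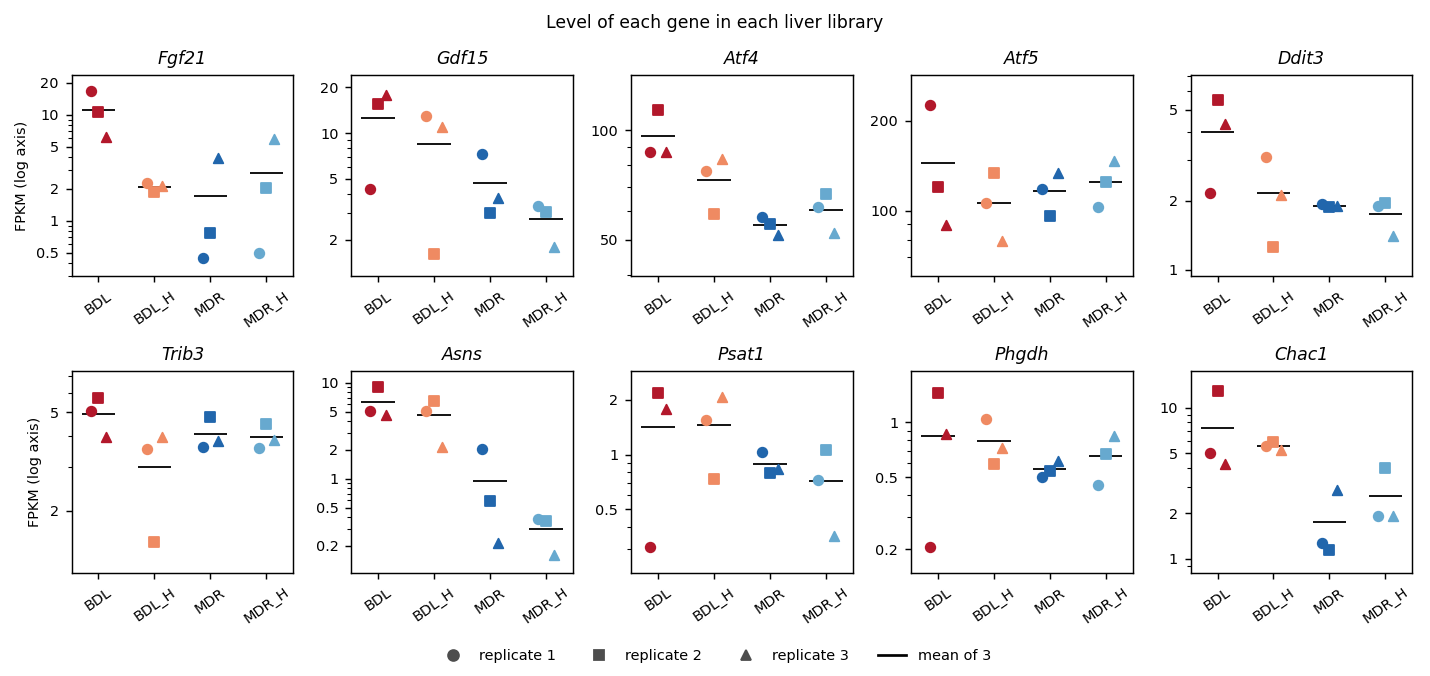
FPKM on a log axis (vertical) of each of the 10 genes in BDL, BDL_H, MDR and MDR_H (horizontal). Each point is 1 library, its shape marks the replicate, and the line is the mean of 3; Fgf21 in BDL, at 6.13 to 16.7 FPKM, lies above the other 9 libraries, and Asns in MDR_H, at 0.161 to 0.382, lies below every ligated liver.

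Gdf15 (chromosome 8, 70629393 to 70632456) encodes a hormone that curbs food intake through a hindbrain receptor. It stood at 4.31, 15.6 and 17.9 FPKM in BDL, 13.0, 1.62 and 10.9 in BDL_H, 7.32, 3.02 and 3.77 in MDR, and 3.32, 3.05 and 1.79 in MDR_H. The low ligated values were BDL replicate 1 and BDL_H replicate 2, the libraries that stood apart, and without them neither pair of model groups overlapped. With all libraries the differences were -1.13 ± 0.62 for MDR minus BDL and -1.05 ± 0.62 for MDR_H minus BDL_H (limma adjusted p = 0.215 and 0.286). Without those 2 libraries the differences were -1.71 and -1.82. Leaving them out takes away the low ligated values themselves, so no test is read from that setting. Over all genes, those called lower for MDR_H against BDL_H went from 101 to 361 in it. HDCA in MDR gave -0.57 ± 0.62 (limma adjusted p = 1.00).

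Atf4 (chromosome 15, 80255184 to 80257541), the transcription factor at the centre of the response, was abundant in every liver. It stood at 87.4, 113.9 and 87.2 FPKM in BDL, 77.5, 58.9 and 83.2 in BDL_H, 57.7, 55.2 and 51.6 in MDR, and 61.7, 66.8 and 52.2 in MDR_H. BDL was highest, and neither BDL_H nor MDR overlapped it. Atf4 fell by 0.79 ± 0.16 in log2(FPKM + 1) from BDL to MDR (limma adjusted p = 0.0100), and by 0.83 without MDR replicate 1 (limma adjusted p = 0.0179). In the fit without that library, the model and the Y-linked genes cannot be told apart at all. MDR_H minus BDL_H was -0.27 ± 0.16 (limma adjusted p = 0.287). HDCA in MDR gave 0.13 ± 0.16, with a 95% interval from -0.22 to 0.48. The value with HDCA was higher in 3 of 3 pairs by replicate number, which no label gives. The description for HDCA in BDL was -0.39 ± 0.16.

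Atf5 (chromosome 7, 44812256 to 44816658), a related factor with a part in the mitochondrial stress response, had the highest levels of the 10 genes. It stood at 225.7, 119.7 and 89.3 FPKM in BDL, 106.4, 133.4 and 79.5 in BDL_H, 118.2, 96.2 and 134.1 in MDR, and 103.3, 124.8 and 146.3 in MDR_H. All 4 groups overlapped, and the top value was BDL replicate 1. No test passed (limma adjusted p = 0.617 for MDR against BDL and 0.620 for MDR_H against BDL_H), and the first difference, -0.22 ± 0.30, was 0.15 without BDL replicate 1. Atf5 overlaps Nup62 and Il4i1 on the other strand, and the sources used here do not say if counting was stranded.

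Ddit3 (chromosome 10, 127290774 to 127296288) encodes CHOP, a factor linked to death of stressed cells. It stood at 2.16, 5.50 and 4.31 FPKM in BDL, 3.09, 1.26 and 2.11 in BDL_H, 1.93, 1.88 and 1.89 in MDR, and 1.89, 1.95 and 1.40 in MDR_H. The MDR livers were nearly equal and lay below all BDL livers. Their difference of -0.72 ± 0.26 did not pass (limma adjusted p = 0.0759). Without BDL replicate 1 the difference was -1.02. That setting takes away the lowest BDL value itself, so no test is read from it. BDL_H replicate 2 is in neither group, and leaving it out changed only the shared estimate of spread and the adjustment (limma adjusted p = 0.0477). Ddit3 is annotated as 2 overlapping gene models, and Mars and Gm4189 lie across it on the other strand.

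Trib3 (chromosome 2, 152337422 to 152344032) encodes a pseudokinase that ATF4 and CHOP induce and that restrains them. It stood at 5.05, 5.72 and 3.99 FPKM in BDL, 3.56, 1.5 and 3.99 in BDL_H, 3.62, 4.78 and 3.83 in MDR, and 3.60, 4.48 and 3.86 in MDR_H. BDL_H replicate 2 was by far the lowest. HDCA in BDL gave -0.61 ± 0.23, and -0.28 without that library and BDL replicate 1. Neither model comparison passed (limma adjusted p = 0.510 and 0.317).

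Asns (chromosome 6, 7675169 to 7693254) encodes asparagine synthetase, a well known target of ATF4 in amino acid shortage. It stood at 5.04, 9.03 and 4.62 FPKM in BDL and 5.05, 6.50 and 2.13 in BDL_H, against 2.05, 0.587 and 0.216 in MDR and 0.382, 0.362 and 0.161 in MDR_H. Every library labelled MDR or MDR_H lay below every ligated one. Asns fell by 1.95 ± 0.37 in log2(FPKM + 1) from BDL to MDR, a ratio of means of 6.54, and by 2.01 ± 0.37 from BDL_H to MDR_H, a ratio of 15.1 (limma adjusted p = 0.00826 and 0.0141). The MDR_H values rest on 31, 32 and 15 reads. Asns passed the filter on low values through the ligated livers, 6 of which reached 1 FPKM, as did 1 library of the other model. Fitted with no filter on low values, it was called lower in both comparisons (limma adjusted p = 0.0163 and 0.0275). That does not undo the choice of the gene, made with earlier results of these data known.

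That library was MDR replicate 1, with Asns at 2.05 FPKM, above its group, below the lowest BDL value of 4.62 and near the lowest BDL_H value of 2.13. Without it, MDR minus BDL was -2.33 (limma adjusted p = 0.00331). MDR replicate 1 alone of the MDR and MDR_H libraries had its Y-linked genes high, at 20.1 FPKM. In the fit without it, the model and the Y-linked genes cannot be told apart at all. The call for MDR_H against BDL_H ended without MDR_H replicate 2 (limma adjusted p = 0.0514) or MDR_H replicate 3 (limma adjusted p = 0.0517). HDCA in MDR gave -0.48 ± 0.37 (limma adjusted p = 1.00), lower in 3 of 3 pairs by replicate number, which no label gives, and -0.098 without MDR replicate 1.

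Chac1 (chromosome 2, 119351229 to 119354381) encodes an enzyme that breaks down glutathione and is induced through ATF4. It stood at 4.99, 12.9 and 4.21 FPKM in BDL, 5.54, 5.94 and 5.27 in BDL_H, 1.28, 1.14 and 2.84 in MDR, and 1.93, 4.01 and 1.91 in MDR_H. MDR lay below BDL and MDR_H below BDL_H, without overlap. Chac1 fell by 1.51 ± 0.36 in log2(FPKM + 1) from BDL to MDR (limma adjusted p = 0.0186), and MDR_H minus BDL_H was -0.91 ± 0.36 (limma adjusted p = 0.123). The call ended without MDR replicate 2 (-1.36, limma adjusted p = 0.0839) and with the spread taken from BDL and MDR alone (limma adjusted p = 0.0679).

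Psat1 (chromosome 19, 15904678 to 15947337) and Phgdh (chromosome 3, 98313170 to 98339990) encode enzymes of serine synthesis. Psat1 stood at 0.307, 2.18 and 1.78 FPKM in BDL, 1.55, 0.734 and 2.07 in BDL_H, 1.03, 0.794 and 0.829 in MDR, and 0.726, 1.06 and 0.356 in MDR_H. Phgdh stood at 0.205, 1.45 and 0.863 FPKM in BDL, 1.05, 0.589 and 0.726 in BDL_H, 0.498, 0.543 and 0.617 in MDR, and 0.452, 0.672 and 0.840 in MDR_H. Both had their lowest and highest values of all 12 livers in BDL, in replicates 1 and 2. Psat1 passed no test with all libraries (limma adjusted p = 0.552 for MDR against BDL and 0.315 for MDR_H against BDL_H). Without BDL replicate 1 and BDL_H replicate 2 the differences were -0.66 and -0.73. Psat1 reached 1 FPKM in 4 ligated libraries and 2 of the other model, so it passed the filter through the ligated livers, and no test is given for that setting. Phgdh reached 1 FPKM in 2 libraries; fitted without the filter, its differences were -0.19 ± 0.22 and -0.11 ± 0.22 (limma adjusted p = 0.589 and 0.806). A pseudogene, Gm3329, overlaps Psat1.

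The 10 genes did not vary as one from library to library. BDL replicate 2 ranked first of 12 for 7 of them, all but Fgf21, Gdf15 and Atf5. BDL replicate 1 ranked first for Fgf21 and Atf5 and last for Psat1 and Phgdh. BDL_H replicate 2 ranked last for Gdf15, Ddit3 and Trib3, yet next to highest for Asns and Chac1. With group means removed, Pearson r over the 12 libraries was 0.87 for Gdf15 and Ddit3 and 0.85 for Gdf15 and Psat1, but -0.36 for Gdf15 and Fgf21. These are descriptions, and the 2 libraries that stood apart enter each of them.

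**Figure D2:**
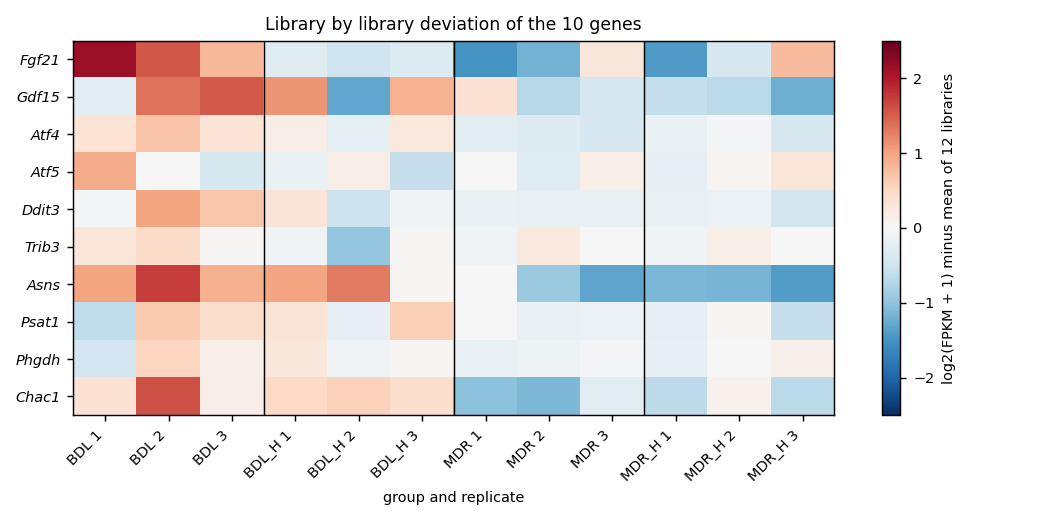
Log2(FPKM + 1) of each gene (rows) minus its mean over 12 libraries, by library (columns, group and replicate), with red above and blue below the mean. Asns and Chac1 are above their means in the ligated livers and mostly below in MDR and MDR_H, while BDL replicate 1 and BDL_H replicate 2 depart from their groups in Gdf15 and Psat1.

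The comparison of BDL_H with BDL asked what HDCA did in ligated livers. Of the 9 genes, 8 had a lower mean in log2(FPKM + 1) with HDCA and Psat1 a higher one, which turned to -0.01 with quantile normalization. Leaving out 1 library also changed the side of 4 genes: Gdf15 was 0.12 without BDL_H replicate 2, Chac1 0.24 without BDL replicate 2, Atf5 0.0099 without BDL replicate 1, and Psat1 ran from -0.32 to 0.32. Fgf21, Atf4, Ddit3, Trib3 and Asns kept a lower mean with HDCA whichever library was left out. The median difference was -0.42, against 0.03 over all genes tested. Of the 10 genes, Fgf21 and Atf4 lay wholly below BDL, as did 1.59% of all genes tested. Calls were made for 0% of the 10805 genes in limma, with 243 at an unadjusted p under 0.05, and limma-voom called 0, with 251. The genes were proposed with this contrast known, so nothing is read from their count.

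The comparison of MDR_H with MDR asked about HDCA in the other model, where it was given for 21 days and not 4. In limma 0 of the 9 genes passed, where 0% of all genes did; the smallest unadjusted p among the 9 was 0.229, for Asns, and limma-voom called 0 of them. The means of 4 were higher and of 5 lower, with a median of -0.03 against -0.04 over all genes; Trib3 changed side under other scalings. None of the 10 separated the groups, while 5.95% of all genes tested did. By replicate number, Fgf21 and Atf4 were higher with HDCA in every pair and Asns was lower in every pair. No label gives these pairs, and the libraries of the first are unlike in Y-linked genes. For Fgf21 the first pair differed by 0.045, on 15 and 16 reads. Nothing is read from these signs. Gdf15, Atf5, Ddit3, Trib3, Psat1, Phgdh and Chac1 had pairs of both signs. Over all genes limma had 61 at an unadjusted p under 0.05, and limma-voom called 0, with 47. The test of the difference between both HDCA effects also called 0% of genes in limma (200 unadjusted; limma-voom 0, with 227). In that difference, model and days of HDCA cannot be told apart. Of the MDR and MDR_H libraries, MDR replicate 1 alone had its Y-linked genes at 20.1 FPKM.

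The models were then set against each other, first without HDCA. These comparisons share the BDL or BDL_H libraries with the first. The genes were chosen with earlier results of these data known. Their counts are therefore descriptions, and nothing is read from how they compare with the shares of all genes. Counts are given over the 6 genes besides Fgf21 that reached 1 FPKM in at least 3 libraries of each model, Gdf15, Atf4, Atf5, Ddit3, Trib3 and Chac1. For MDR against BDL, all 6 had a lower mean, with a median of -0.76 where all genes tested had 0.25; Atf5 changed side without BDL replicate 1 and with array weights. Atf4 and Chac1 were called lower, 2 of 6, where 1.07% of all genes tested were called lower and 15.1% higher. Atf4, Ddit3 and Chac1 lay wholly below BDL, 3 of 6, as did 3.12% of all genes. With HDCA, for MDR_H against BDL_H, 0 of these 6 were called by limma or limma-voom, with 1, Chac1, at an unadjusted p under 0.05 in limma, where 0.935% of all genes were lower and 7.36% higher. Their median was -0.22 against 0.20, and Chac1 alone of the 6 lay wholly below BDL_H, as did 4.55% of all genes. Asns, called lower in both, stands outside these counts because of how it passed the filter.

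Most genes called between the models were higher in MDR or MDR_H, and that depended on scaling. For MDR against BDL 93.4% of calls were higher, and 63.8% after median-of-ratios scaling, which moved the median of all genes from 0.25 to -0.01. For MDR_H against BDL_H the share was 88.7% and 53.8%. On that scale the differences of MDR and BDL were -2.14 for Asns, -1.10 for Atf4 and -1.74 for Chac1, and Ddit3 was called lower too (-0.94, limma adjusted p = 0.0180). Atf4 was then called lower in MDR_H as well (-0.51, limma adjusted p = 0.0486), but not with quantile normalization (limma adjusted p = 0.0531). Of 23 settings, 2 called it there. Of the 9 genes, Atf5 alone changed sign for MDR against BDL under any setting tried.

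**Figure D3:**
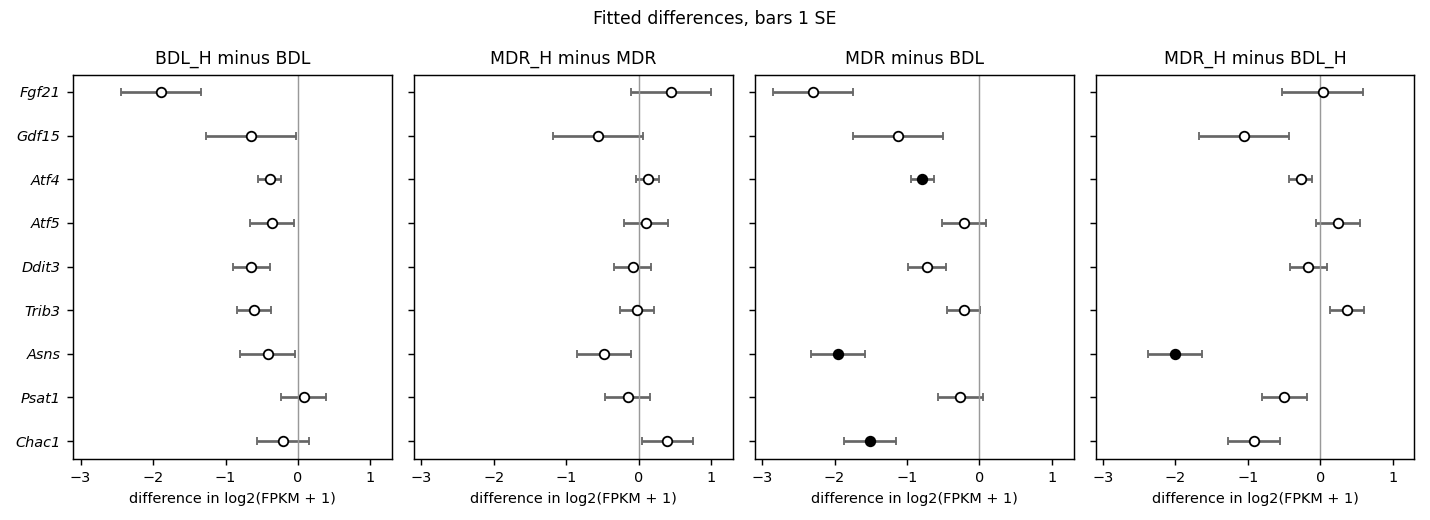
Fitted differences in log2(FPKM + 1) (horizontal) of the 9 genes tested (vertical) in 4 comparisons, with bars of 1 SE. Filled points were called by limma at an adjusted p under 0.05, Atf4, Asns and Chac1 for MDR minus BDL and Asns for MDR_H minus BDL_H; open points were not called or, for Fgf21 and for BDL_H minus BDL, given no p.

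Markers of other liver cells differed between the models beside these genes. Of 8 T, NK and B cell markers, all in the data, the sum was 0.638 to 2.07 FPKM in BDL, 0.897 to 2.52 in BDL_H, 6.68 to 8.88 in MDR and 5.34 to 6.35 in MDR_H. The 8 stellate cell and fibroblast markers summed to 56.6 to 114.6, 119.5 to 191.5, 200.7 to 368.6 and 248.2 to 326.9 in the same order, and the 8 of endothelial cells to 31.3 to 125.4, 130.4 to 144.2, 148.9 to 178.4 and 157.7 to 190.7. The 7 hepatocyte markers summed to 51692 to 56773, 48526 to 64267, 35518 to 42210 and 32422 to 49590. Not every list was higher. Neutrophil markers summed to 25.8 to 61.5, 24.9 to 91.2, 17.1 to 61.1 and 29.4 to 42.6, with overlap throughout; their median difference was -0.24 for MDR against BDL, and -0.63 with 1 of 5 called lower for MDR_H against BDL_H. Kupffer cell and macrophage markers also overlapped between BDL, at 139.5 to 307.0, and MDR, at 267.6 to 409.0, with 1 of 8 called higher. Monocyte and scar-associated macrophage markers summed to 121.7 to 245.8 in BDL and 473.6 to 1181 in MDR, with 3 of 8 called higher, and those of cholangiocytes to 124.2 to 410.4 and 333.5 to 519.8, with 4 of 6. No marker was at 0 in all libraries. The part of these markers in the differences of the 10 genes was not tested.

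Of 45 other ATF4 targets, 37 were tested, and for MDR against BDL 2 were called lower and 1 higher, where 1.07% of all genes were lower and 15.1% higher, with a median of -0.02 against 0.25 for all genes. Cebpb, a C/EBP factor, fell from 182.6 ± 52.8 FPKM to 81.4 ± 41.2 (-1.22 ± 0.32, limma adjusted p = 0.0279). Slc38a2, a carrier of neutral amino acids, fell from 30.0 ± 4.99 to 15.7 ± 5.75 (-0.93 ± 0.26, limma adjusted p = 0.0359). Tars, a tRNA synthetase, rose from 43.7 ± 8.40 to 62.4 ± 7.25 (0.51 ± 0.16, limma adjusted p = 0.0471). After median-of-ratios scaling 7 were called lower and 0 higher, and without MDR replicate 1 there were 0 in either direction. For MDR_H against BDL_H limma called 0, with 5 at an unadjusted p under 0.05, where 0.935% of all genes were lower and 7.36% higher, and limma-voom called 0. After that scaling limma called 4 lower.

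By kind, the median for MDR minus BDL was -0.23 over the 11 regulators and secreted factors tested and -0.01 over 6 enzymes. It was -0.05 over 7 amino acid transporters and 0.05 over the 13 genes of the tRNA synthetase list, which includes Xpot. Atf3, a stress-induced factor, was at 8.79 ± 1.96 FPKM in BDL and 3.40 ± 0.208 in MDR, and did not pass (limma adjusted p = 0.114). Ddit4, an inhibitor of mTORC1, was at 19.9 ± 16.6 and 7.32 ± 3.80 (limma adjusted p = 0.192). HDCA brought 0 calls among the 37 in MDR by limma and by limma-voom.

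Of the 14 genes of eIF2 kinases, exchange factor and phosphatase, 0 were called for MDR against BDL in limma, with 1 at an unadjusted p under 0.05, and limma-voom also called 0, where 1.07% of all genes were called lower and 15.1% higher. Their median was 0.07 against 0.25 for all genes. The gene with that p was Eif2b4, a subunit of the exchange factor, at 16.6 ± 3.07 FPKM in BDL and 12.4 ± 0.944 in MDR (-0.38 ± 0.14, limma adjusted p = 0.0802), and it was called lower after median-of-ratios scaling (-0.68, limma adjusted p = 0.0125). Of 18 targets of ATF6 and XBP1, which serve protein folding in the endoplasmic reticulum, 1 was called lower and 0 higher in limma, against the same shares of all genes. For MDR against BDL 14 of the 18 had a higher mean and 4 a lower one, with a median of 0.28 against 0.25 for all genes. The 1 called went against most of its list. Herpud1, which helps clear misfolded proteins, fell from 236.3 ± 13.8 FPKM in BDL to 84.2 ± 8.75 in MDR (-1.48 ± 0.21, limma adjusted p = 0.00268) and from 212.9 ± 61.4 in BDL_H to 95.9 ± 15.3 in MDR_H (-1.11 ± 0.21, limma adjusted p = 0.0139).

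Some genes of other known controls of Fgf21, and of FGF receptors, were called higher in MDR than in BDL, where 15.1% of all genes tested were. Most of these calls ended with median-of-ratios scaling. Of 10 carbohydrate response genes, 4 were called higher, above that share, namely Pklr (1.27 ± 0.22), Txnip (1.49 ± 0.38), Khk (0.90 ± 0.16) and Tkfc (0.85 ± 0.22). With quantile normalization Khk and Pklr stayed called (limma adjusted p = 0.0185 and 0.0151), and after median-of-ratios scaling Pklr alone did. Of 16 PPAR alpha genes, 2 were called higher, Ppara from 11.0 ± 2.09 to 17.9 ± 2.36 FPKM and Hadha from 100.1 ± 10.2 to 131.3 ± 2.46, and 0 after that scaling or without MDR replicate 1. Their count is near the share over all genes, as is that of the next list. Of 7 mitochondrial stress genes besides Atf5, Lonp1 was called higher (0.38 ± 0.11), and 0 after that scaling. Of 5 FGF receptor genes tested, Fgfr3 (0.79 ± 0.17) and Fgfr1 (0.56 ± 0.16) were called higher, while after that scaling Fgfr3 was higher and Fgfr4 lower.

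The genes whose levels followed Fgf21 most closely over 12 livers were Tob2 (Pearson r = 0.91), Cebpb (0.88), Trp53inp1 (0.86), Ppp1r15a (0.84) and Stk35 (0.84); with group means removed the values were 0.87, 0.84, 0.77, 0.81 and 0.85. Cebpb stood at 232.5, 188.1 and 127.3 FPKM in BDL, in the order of Fgf21, and replicate 3 of MDR and of MDR_H, at 128.5 and 138.8, was the highest of its group, as for Fgf21. For Asns they were Mrap (0.94), Slc38a3 (0.94), Slc35d1 (0.93), Slc41a2 (0.93) and C4bp (0.92). For Gdf15 they were Srxn1 (0.96), a sulfiredoxin, Mdm2 (0.95), the ligase that degrades p53, Otud1 (0.94), Pkp2 (0.94) and Gsr (0.93), glutathione reductase, with 0.95, 0.96, 0.95, 0.95 and 0.92 when group means were removed. They were picked as the closest, so these values carry no test, and the libraries share 4 groups and the 2 that stood apart.

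**Figure D4:**
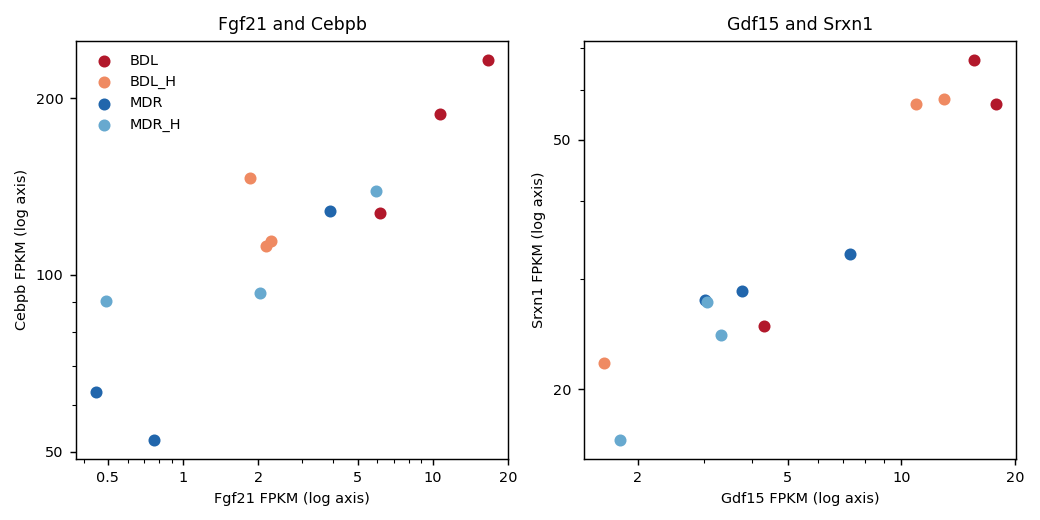
FPKM of Cebpb against Fgf21 (left) and of Srxn1 against Gdf15 (right), on log axes, 1 point per library coloured by group. Cebpb and Fgf21 are highest together, at 232.5 and 16.7 FPKM in BDL replicate 1, and 4 ligated livers stand above all other libraries in Gdf15 and Srxn1.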

How the data were processed

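The authors deposited FPKM values for 16970 gene symbols in 12 liver libraries. Per the submitters' processing notes, the tools were fastp, HISAT2 2.0.5, featureCounts 1.5.0-p3, CASAVA 1.8 and DESeq2 1.20.0, with build GRCm38 (mm10); neither their order, the annotation release nor strand use is stated in the sources used here.

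Groups came from the titles. Genes at 1 FPKM or more in at least 3 libraries were tested, 10805 in all, as log2(FPKM + 1), a scale that understates changes of low genes. The fit was limma 3.58.1 in R 4.3.3, with trend, 4 group means over all libraries, two-sided tests, Benjamini-Hochberg adjustment over all genes tested and calls at an adjusted p under 0.05. It was tested on simulated data with no library standing apart and no difference between BDL and MDR. That test does not cover these features of the data. FPKM steps gave whole reads, within 0.02 of a read, for 16968 genes; Fn1 and Mmp9 did not. These reads, 34260782 to 40427855 a library, went into limma-voom.

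The genes, lists and alternatives were chosen with earlier results of these data known. List genes named are among the 4 with the smallest p of their list in a comparison, except Fgfr4 and Pklr after scaling, which are named for their calls. Alike genes are the 5 with the highest Pearson r. Promoters shown and pairs of genes were chosen after values were seen. Same-numbered MDR and MDR_H libraries deviated together (r = 0.438, 0.312 and 0.548), so these numbers were taken as pairs, from the values alone. Libraries of unlike number were not compared in this way. Positions are from GENCODE M21.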

Additional observations from a re-analysis of the deposited data

How the results depend on the processing

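With the replicate block, Atf4, Asns and Chac1 stayed called for MDR against BDL and Asns for MDR_H against BDL_H, where genes called were 523 higher and 66 lower (795 and 101 without the block). The count-model tests planned were not run, since the values are FPKM; limma-voom, chosen after seeing the data, stood in. For MDR against BDL, 1630 genes were called higher and 116 lower; a mean FPKM of 5 or more gave 540 and 76, median-of-ratios scaling 671 and 381, quantile normalization 548 and 393, and array weights 4201 and 746. With the compared libraries alone 650 were higher. Lower genes were 361 without BDL replicate 1 and BDL_H replicate 2, and 403 without MDR replicate 1 as well, a setting also chosen after seeing the data. Leaving out 1 library gave 452 to 2168 higher and 37 to 178 lower. For MDR_H against BDL_H, higher genes were 367 with a mean FPKM of 5 or more, 340 with median-of-ratios scaling, 380 with quantile normalization, 2188 with array weights and 464 with the compared libraries alone. Lower genes there were 292, 339 and 562 with the scalings and weights, and 361 and 427 without the 2 or 3 libraries. Leaving out 1 library gave 144 to 1375 higher and 22 to 175 lower. For HDCA in BDL, array weights called 1 gene higher. Of the 8 genes besides Fgf21, those called lower for MDR against BDL were 1 with a mean FPKM of 5 or more, which leaves out Asns and Chac1, 7 with array weights, 6 without the 2 or 3 libraries and 2 to 4 without 1 library; Asns and Psat1, which passed the filter through the ligated livers, are among the 8. For MDR_H against BDL_H they were 0, 4, 3 and 0 to 1, and 2 with median-of-ratios scaling. Gdf15, whose low ligated values lie in the 2 libraries left out, is also among the 8. So is Ddit3, whose lowest BDL and BDL_H values lie there. Array weights were lowest for those 2 libraries, 0.134 for BDL replicate 1 and 0.171 for BDL_H replicate 2. That setting thus comes near to leaving them out.

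Some small differences changed sign, besides those given above for HDCA in BDL and for Fgf21. For HDCA in MDR, Trib3 was 0.0059 with median-of-ratios scaling, 0.019 with quantile normalization and 0.037 with array weights. Without 1 library, Trib3 ran from -0.097 to 0.071, Fgf21 from -0.12 to 0.98, Atf5 from -0.027 to 0.23, Ddit3 from -0.14 to 0.012 and Psat1 from -0.30 to 0.0040. For MDR against BDL, Atf5 was 0.092 with array weights, 0.15 and 0.13 without the 2 or 3 libraries, and -0.51 to 0.15 without 1. For MDR_H against BDL_H, Ddit3 ran from -0.38 to 0.045 without 1. The cause was not tested. Depth limits Fgf21 and Asns in MDR and MDR_H, where values rest on as few as 15 reads.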
